A study of Homo sapiens with 8 samples.

Results

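CARD8, the sensor of a human inflammasome, was followed with 6 partners in xenograft tumours of the breast cancer line MDA-MB-231: its inhibitors DPP8 and DPP9, the inflammatory caspase CASP4, the gasdermins GSDMD and GSDME, and the cytokine gene IL18. The 7 genes were taken by name from the 13546 genes of the deposited count table, and all 7 were found. CARD8 was chosen by its measured difference between the genotypes, CDK4KO against CDK4WT, and the partners by name as genes of its pathway with the same results known, so differences between genotypes in these genes are given as descriptions and without p-values. The compared tumours were CDK4KO (4 libraries), grown in nude mice from MDA-MB-231 cells labelled as CDK4 knockout, and CDK4WT (4 libraries), grown in the same way from cells with intact CDK4. MDA-MB-231 is an established human triple-negative line. The CDK4 kinase binds D-type cyclins and phosphorylates the tumour suppressor RB, and the series title ties it to the cytoskeleton. Nude mice lack a thymus and mature T cells but keep macrophages and other innate cells. The labels do not say how CDK4 was disrupted or whether the CDK4KO cells were 1 clone.

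An inflammasome is a cytosolic platform that activates inflammatory caspases. CARD8 cleaves itself into a pair of fragments that stay bound to each other, and degradation of the N-terminal fragment by the proteasome frees the C-terminal one, whose caspase recruitment domain binds and activates caspase-1. The serine peptidases DPP8 and DPP9 bind CARD8 and hold the freed fragment back, and small molecules that inhibit them trigger the pathway in human leukocytes. Caspase-1 and caspase-4 cut gasdermin D, gasdermin E is a related pore former, and the released gasdermin fragments form pores that let interleukin-18 out and lead to pyroptosis, a lytic form of cell death. Mice have no CARD8 gene, whereas they have counterparts of the 6 partners.

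The CDK4KO libraries held 30057000 to 33307000 counts and the CDK4WT libraries 27841000 to 33618000. CDK4 itself stood at 111 to 134 CPM (counts scaled to library size) in CDK4KO and 107 to 116 CPM in CDK4WT, and because the kind of disruption is not given, this mRNA level does not check the label. CDK4KO replicates 1 and 4 had the lowest mean correlations with their own group, 0.985 and 0.986, against 0.992 to 0.995 among CDK4WT libraries. VIM, a mesenchymal filament gene that marks this line, reached 7810 to 11100 CPM in CDK4KO and 8930 to 11500 CPM in CDK4WT. Of the genes of the receptors by which triple-negative tumours are classed, ERBB2 stood at 95.4 to 109 CPM in CDK4KO and 96.1 to 102 CPM in CDK4WT. ESR1 and PGR were not analysed here. Summed over 9 of 14 macrophage and leukocyte markers, the level was 391, 209, 223 and 325 CPM in CDK4KO replicates 1 to 4 and 212 to 255 CPM in CDK4WT. CD74 and LAPTM5 carried these sums, with 360, 174, 188 and 288 CPM in CDK4KO replicates 1 to 4 and 179 to 215 CPM in CDK4WT, while the other 7 markers summed to 31.7 to 36.4 CPM in CDK4KO and 30.8 to 41.2 CPM in CDK4WT. These are bulk samples, in which fewer cells of a type and less RNA per cell cannot be told apart. The counts are of human genes, the host is a mouse, and how mouse reads were treated is not given. The sums are therefore not a measure of host leukocytes.

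Promoter sequences are shown for CARD8, the member whose level differed most between the genotypes, and for the genes of its inhibitors, because these 3 share a short ETS-type motif near the annotated start. The windows run from 250 bases before to 50 bases after the first transcription start listed for the gene in the RefSeq table (GRCh38.p14). They read 5′ to 3′ on the minus strand, and capitals mark the letters CCGGAAG on either strand. The CARD8 window is chr19:48255897-48256196, the DPP8 window chr15:65517640-65517939 and the DPP9 window chr19:4723793-4724092.

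CARD8: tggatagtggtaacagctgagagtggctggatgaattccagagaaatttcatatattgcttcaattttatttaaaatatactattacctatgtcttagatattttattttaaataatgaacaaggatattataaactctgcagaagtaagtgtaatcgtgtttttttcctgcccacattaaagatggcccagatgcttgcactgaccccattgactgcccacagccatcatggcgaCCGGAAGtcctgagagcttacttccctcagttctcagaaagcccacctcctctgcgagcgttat

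DPP8: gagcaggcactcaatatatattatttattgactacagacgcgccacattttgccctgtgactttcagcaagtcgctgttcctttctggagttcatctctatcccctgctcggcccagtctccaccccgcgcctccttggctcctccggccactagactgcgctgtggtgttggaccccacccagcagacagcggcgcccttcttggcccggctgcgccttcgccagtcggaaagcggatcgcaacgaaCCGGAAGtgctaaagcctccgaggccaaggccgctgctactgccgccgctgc

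DPP9: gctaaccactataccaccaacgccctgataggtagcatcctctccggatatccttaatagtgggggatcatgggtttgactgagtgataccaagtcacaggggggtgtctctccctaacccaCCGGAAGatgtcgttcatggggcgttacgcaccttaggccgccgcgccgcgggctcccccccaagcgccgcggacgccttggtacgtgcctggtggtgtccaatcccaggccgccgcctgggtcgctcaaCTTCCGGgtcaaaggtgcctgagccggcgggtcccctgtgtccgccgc

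The motif begins 14 bases before the start in CARD8 and 2 bases before it in DPP8. DPP9 has a match 128 bases before the start and another on the opposite strand 3 bases after it. The starts used for DPP9, CASP4 and GSDME (4723842, 104968574 and 24757464) lie inside the genes, whose annotated 5′ ends are 4724673, 104969436 and 24758113. Windows at other starts, and those of GSDMD and IL18, were not read. The windows of CASP4 and GSDME held no match, and across 10667 promoters of the table's genes 19.2% held at least 1. The letters were picked after these sequences had been read. An E2F-type motif was searched on both strands as TTTCCCGC, TTTCGCGC, TTTGCCGC or TTTGGCGC, because E2F factors act downstream of CDK4 and RB. It was found in none of the 5 member windows read and in 5.35% of all promoters. At so low a share 5 windows would mostly hold none, so nothing is read from this absence. The windows of CARD8 and CASP4 are poor in G and C, at 40.0% and 39.7%, against a median of 65.3% over all promoters. Those of DPP8, DPP9 and GSDME had 60.3%, 63.3% and 77.0%. A TATAAA match lies 121 bases before the CARD8 start, and 5.67% of all promoters held these letters on either strand. The windows of CARD8, DPP8 and DPP9 hold no GC box (GGGCGG on either strand), which 69.9% of promoters held. Those of CASP4 and GSDME hold 1 and 3. A match is a description of letters and not a bound site.

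CARD8 mRNA was higher in every CDK4KO tumour than in every CDK4WT tumour. The gene (ENSG00000105483, chromosome 19, 48180770 to 48255946, minus strand, hg38) had 122, 114, 131 and 110 CPM in CDK4KO replicates 1 to 4, against 87.3, 85.3, 88.7 and 82.5 CPM in CDK4WT replicates 1 to 4. The 4 CDK4WT tumours lay close together, and the lowest CDK4KO tumour, replicate 4, was still well above the highest of them. The means were 120 CPM ± 9.32 in CDK4KO and 85.9 CPM ± 2.71 in CDK4WT (SD, n = 4 each), a ratio of 1.39 with a 95% interval of 1.26 to 1.53. On the log2 scale the difference, CDK4KO minus CDK4WT, was 0.48 ± 0.06 (SE), and 1.73% of all genes had a larger one. CARD8 was the 1 member of 7 whose genotypes did not overlap and that passed edgeR's test across all genes, where 7.68% of all genes had no overlap, 3.87% with CDK4KO above, and 0.0591% were called in either direction. Since CARD8 was chosen for that difference, nothing is read from this count. The log2 difference was 0.51 without CDK4KO replicates 1 and 4, the libraries that correlate least with their group.

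**Figure D1:**
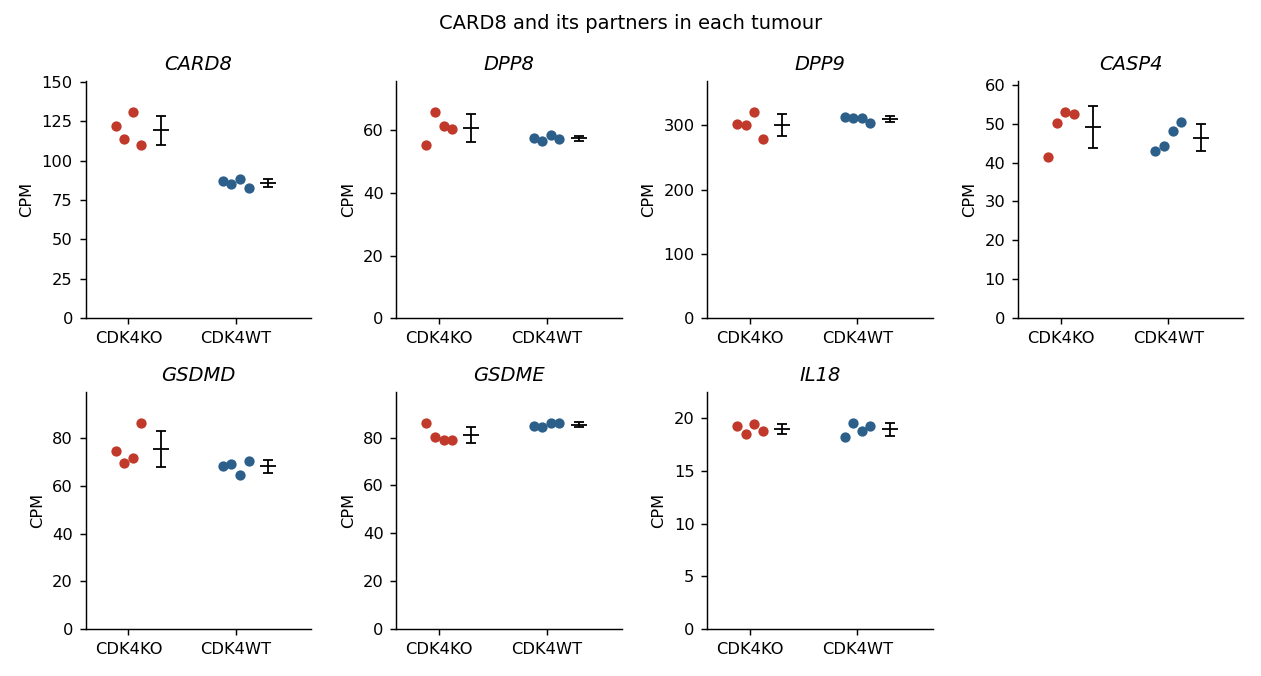
Level of each member in CPM (vertical axes, from 0) in the 4 CDK4KO tumours (red, left) and the 4 CDK4WT tumours (blue, right), with the mean and SD beside the points. CARD8 lies at 110 to 131 CPM in CDK4KO and 82.5 to 88.7 CPM in CDK4WT without overlap, while the points of the genotypes overlap in each of the other genes.

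Both inhibitor genes overlapped between the genotypes. DPP8, the peptidase gene on chromosome 15 (ENSG00000074603, 65442463 to 65517704), had 55.4, 65.9, 61.5 and 60.3 CPM in CDK4KO and 57.6, 56.5, 58.4 and 57.4 CPM in CDK4WT. In CDK4KO, 3 tumours lay above the CDK4WT range and replicate 1 below it. Its log2 difference was 0.08 ± 0.06 (SE), and the interval of the ratio ran from 0.962 to 1.16. The log2 difference was 0.04 to 0.12 with each library left out in turn, lowest without CDK4KO replicate 2. DPP9 (ENSG00000142002, chromosome 19, 4675224 to 4724673), the gene of the related peptidase, had 302, 300, 321 and 279 CPM in CDK4KO and 313, 312, 311 and 304 CPM in CDK4WT. In CDK4KO, 3 tumours lay below a narrow CDK4WT range and replicate 3 above it. This gave a log2 difference of -0.05 ± 0.06, with an interval of the ratio from 0.887 to 1.06, and of -0.01 without CDK4KO replicate 4 and -0.08 without CDK4KO replicate 3. CARD8 and DPP9 lie on the same chromosome but on different arms.

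CASP4, which encodes the caspase that senses bacterial lipopolysaccharide in the cytosol (ENSG00000196954, chromosome 11, 104942866 to 104969436), had 41.3, 50.1, 53.0 and 52.5 CPM in CDK4KO and 43.0, 44.2, 48.0 and 50.4 CPM in CDK4WT. Its coefficient of variation within genotypes, 11.1% in CDK4KO and 7.35% in CDK4WT, was the highest of the members, and CDK4KO replicate 1 was lowest of all 8 tumours. CASP4 differed by 0.09 ± 0.09 on the log2 scale, with an interval from -0.11 to 0.28, and it was 0.16 without CDK4KO replicate 1 but 0.05 without CDK4KO replicate 3, CDK4KO replicate 4 or CDK4WT replicate 1.

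Of the pore-forming genes, GSDMD (ENSG00000104518, chromosome 8, 143553207 to 143563062) had 74.6, 69.6, 71.6 and 86.5 CPM in CDK4KO and 68.3, 69.3, 64.5 and 70.4 CPM in CDK4WT. CDK4KO replicate 4 stood above the rest and replicate 2 lay within the CDK4WT range. The log2 difference was 0.15 ± 0.07, its interval of -0.01 to 0.31 included 0, and it was 0.08 without CDK4KO replicate 4. That library also had 325 CPM of summed macrophage and leukocyte markers, 288 CPM of it from CD74 and LAPTM5, and PTPRC, the pan-leukocyte marker, reached at most 3.39 CPM in any CDK4KO library and 4.32 CPM in any CDK4WT library. CDK4KO replicate 1, where these sums were 391 and 360 CPM, had 74.6 CPM of GSDMD. Whether these marker counts come from mouse cells of the host or from the tumour cells was not tested. Any part of leukocytes in the GSDMD level was not tested either.

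GSDME (ENSG00000105928, chromosome 7, 24698351 to 24758113), the gasdermin gene formerly called DFNA5, had 86.2, 80.4, 78.8 and 78.9 CPM in CDK4KO and 84.8, 84.4, 86.2 and 86.2 CPM in CDK4WT. In CDK4KO, 3 tumours lay below the CDK4WT range and replicate 1 at its upper end. On the log2 scale the genotypes differed by -0.07 ± 0.05, with an interval from -0.19 to 0.04.

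IL18, the cytokine gene (ENSG00000150782, chromosome 11, 112143251 to 112164117), was the member with the fewest counts and the smallest difference. It had 19.3, 18.5, 19.5 and 18.8 CPM in CDK4KO and 18.2, 19.6, 18.8 and 19.3 CPM in CDK4WT, so that every CDK4KO value lay inside the CDK4WT range. The log2 difference came to 0.00 ± 0.07 (SE), with an interval of the ratio from 0.906 to 1.11. Raw counts of IL18 were 523 to 666 per library, against 2379 to 3995 for CARD8 and 8592 to 10589 for DPP9. Counting alone gives IL18 a coefficient of variation of 3.87% to 4.37%, above its measured 2.34% in CDK4KO and 3.27% in CDK4WT, so its spread between tumours lies at the counting limit.

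Set against its partners within each tumour, CARD8 had a higher mean ratio in CDK4KO to each of the 6. The ratio of CARD8 to DPP9 CPM was 0.404, 0.381, 0.409 and 0.396 in CDK4KO and 0.279, 0.273, 0.285 and 0.272 in CDK4WT. It was the tightest of the 6, with a log2 SD of 0.05 in CDK4KO and 0.03 in CDK4WT around a difference of 0.52. The ratio to DPP8 was 1.73 to 2.21 in CDK4KO and 1.44 to 1.52 in CDK4WT, a log2 difference of 0.40.

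The ratio to CASP4 was 2.10 to 2.96 in CDK4KO and 1.64 to 2.03 in CDK4WT, and this gap between the genotypes was the narrowest of those without overlap. The ratio to GSDMD overlapped (CDK4KO 1.28 to 1.83, CDK4WT 1.17 to 1.37), and CDK4KO replicate 4 combined the lowest CARD8 and the highest GSDMD of its group. The ratio to GSDME was 1.40 to 1.67 in CDK4KO and 0.957 to 1.03 in CDK4WT, the largest log2 difference of the 6, 0.55. The ratio to IL18 was 5.86 to 6.72 in CDK4KO and 4.27 to 4.78 in CDK4WT. In 5 of the 6 ratios all CDK4KO tumours lay above all CDK4WT tumours, as did the ratio of CARD8 to 73.4% of all other genes. All 6 ratios share the CARD8 value, which was chosen for its difference, so nothing is read from this count.

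**Figure D2:**
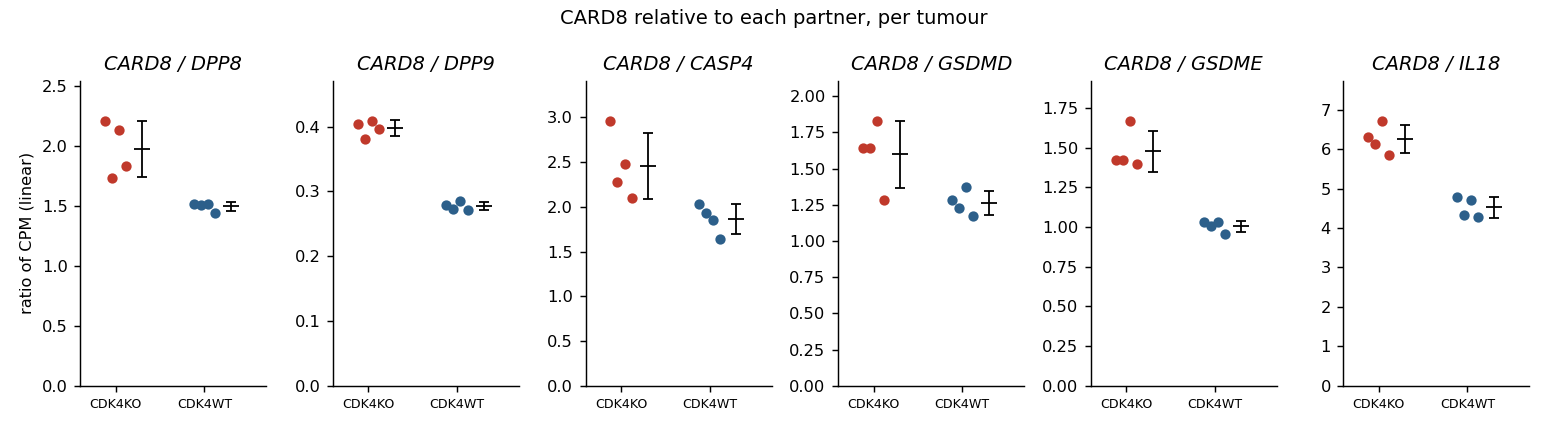
Ratio of CARD8 CPM to the CPM of each partner (linear vertical axes, from 0) in the 4 CDK4KO tumours (red, left) and the 4 CDK4WT tumours (blue, right), with mean and SD. The genotypes separate for DPP8, DPP9, CASP4, GSDME and IL18, and overlap for GSDMD, where CDK4KO replicate 4 has a ratio of 1.28.

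Per kilobase of annotated exons (RPKM, CPM divided by the length of all exons of the gene merged), DPP9 was the most abundant member in both genotypes, at 36.1 RPKM ± 2.10 in CDK4KO and 37.3 RPKM ± 0.505 in CDK4WT (SD, n = 4 each). GSDMD came next, at 14.8 RPKM ± 1.48 in CDK4KO and 13.3 RPKM ± 0.499 in CDK4WT. CARD8 held the third place in CDK4KO, at 9.26 RPKM ± 0.722, and the fifth in CDK4WT, at 6.66 RPKM ± 0.210. In CDK4KO it was level with GSDME within the spread, which stood at 9.17 RPKM ± 0.395 in CDK4KO and 9.65 RPKM ± 0.106 in CDK4WT. IL18 had 7.24 RPKM ± 0.170 in CDK4KO and 7.22 RPKM ± 0.236 in CDK4WT. CASP4 had 6.78 RPKM ± 0.751 in CDK4KO, a spread that covers the mean of IL18, and 6.39 RPKM ± 0.470 in CDK4WT, a spread that covers the mean of CARD8. DPP8 was lowest, at 5.95 RPKM ± 0.423 in CDK4KO and 5.63 RPKM ± 0.0779 in CDK4WT. The merged exons of CARD8 come from 30 annotated transcripts and span 12912 bases, against 5263 for its longest transcript. With the longest transcript as the length, CARD8 took the second place in CDK4KO, at 22.7 RPKM, and the fourth in CDK4WT, at 16.3 RPKM.

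The genes beside CARD8 on chromosome 19 had differences on both sides of 0. Its 10 nearest tested neighbours, 5 on each side, had a median log2 difference of -0.02, 4 were positive and 0 passed edgeR's test across all genes, which called 0.0591% of all genes. DESeq2 and limma voom also called 0, where they called 2.33% and 2.10% of all genes, and 1, PLA2G4C, had an unadjusted edgeR p under 0.05, as had 13.0% of all genes. These counts are near the shares over all genes. ZSWIM9, whose exons overlap 2.4% of the CARD8 exon length on the opposite strand, had 23.7, 20.9, 20.4 and 21.4 CPM in CDK4KO and 21.5, 22.2, 20.7 and 24.1 CPM in CDK4WT. CARD8-AS1, an antisense gene that spans the annotated start of CARD8, had 12.0, 8.48, 9.90 and 9.92 CPM in CDK4KO and 9.33, 10.3, 10.8 and 10.2 CPM in CDK4WT. The genotypes overlapped in both, with log2 differences of -0.03 ± 0.08 for ZSWIM9 and -0.01 ± 0.11 for CARD8-AS1. A further antisense gene, not analysed here, overlaps 2.9% of the CARD8 exon length, and DPP9-AS1, likewise not analysed here, overlaps 18.4% of that of DPP9. No label says whether reads were assigned by strand, and that share of the CARD8 and DPP9 counts is therefore uncertain. PLA2G4C, the third neighbour on one side and a phospholipase gene, had the highest log2 difference among the neighbours, 0.57 ± 0.21, at 6.96 CPM ± 2.11 in CDK4KO and 4.68 CPM ± 0.822 in CDK4WT (edgeR adjusted p = 0.278).

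**Figure D3:**
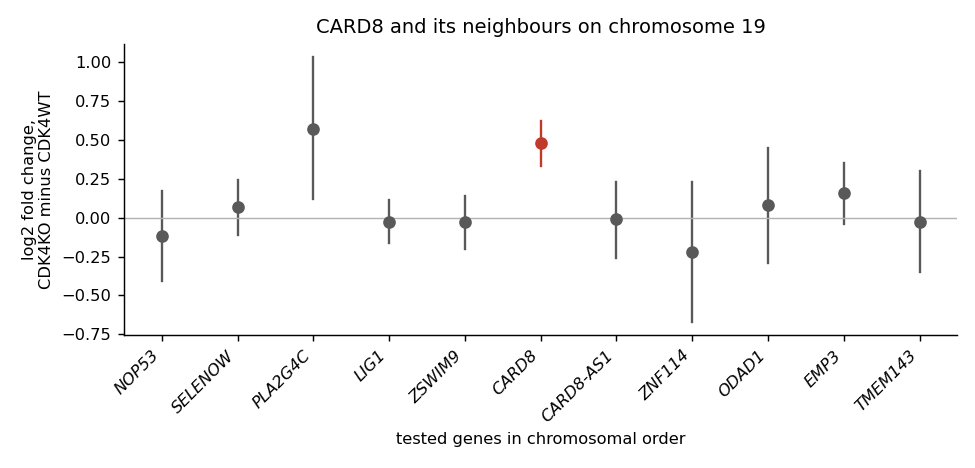
Log2 fold change, CDK4KO minus CDK4WT (vertical axis), of CARD8 (red) and of the 5 tested genes on each side of it in chromosomal order (grey), with 95% intervals from the edgeR fit. CARD8 lies at 0.48, ZSWIM9 and CARD8-AS1 next to it lie near 0, and PLA2G4C at 0.57 has a wide interval.

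Within the genotypes, CARD8 and DPP9 deviated together. After each genotype's mean had been subtracted from log2 CPM, their Pearson correlation over the 8 libraries was 0.906, and 10 of 11406 genes with an average log2 CPM of at least 2 had a higher one with CARD8. Spearman's rho was 0.81, and without CDK4KO replicates 3 and 4, the farthest in CARD8, the Pearson correlation was 0.70 and rho 0.543 over 6 libraries. CDK4KO replicate 3 was high and replicate 4 low in both genes, at 0.14 and -0.11 for CARD8 and 0.10 and -0.11 for DPP9. The other partners had correlations of 0.292 (IL18), 0.098 (GSDME), -0.176 (CASP4), -0.178 (DPP8) and -0.598 (GSDMD). Highest were FOXP2, a forkhead transcription factor, at 0.947, and CASP2, a caspase that also carries a CARD domain, at 0.943, followed by DTX2, SCAPER and TGFB3 at 0.936 to 0.926. These values describe 8 libraries with 2 group means removed, which share their scaling, and with so many genes high values occur in any such ranking. None of these 5 genes was higher in all CDK4KO tumours, and SCAPER was lower in all of them, at -0.17 ± 0.08.

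**Figure D4:**
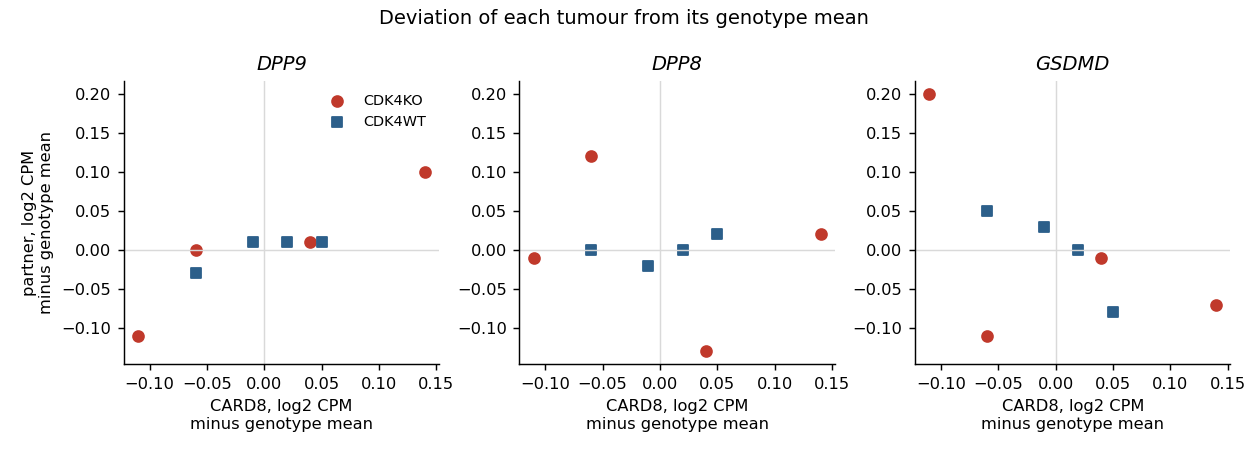
Deviation of each tumour from its genotype mean in log2 CPM, for CARD8 (horizontal axes) and DPP9, DPP8 or GSDMD (vertical axes), with CDK4KO as red circles and CDK4WT as blue squares. CARD8 and DPP9 deviate together across tumours (correlation 0.906), DPP8 shows no common order with CARD8 (-0.178), and GSDMD runs opposite (-0.598), with CDK4KO replicate 4 at the far upper left.

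The question that remains is whether other genes of the pathway differed between the genotypes. Of 119 genes in 7 lists of sensors, caspases, gasdermins and repair factors, cytokines, peptidases, degradation factors and CARD proteins, none of them members, 92 were measured. None of the 92 passed edgeR's quasi-likelihood test across all genes, and 12 had an unadjusted p under 0.05 (7 higher and 5 lower in CDK4KO), or 13.0%, the same share as the 13.0% of all genes. DESeq2 called 3 of them, where it called 2.33% of all genes, and limma voom with library quality weights called the same 3, where it called 2.10%. These were CARD6, GSDMC and PSMA4. Of the 92 genes, 44 had a positive and 48 a negative log2 difference. Counts of signs within the lists, given below, were not tested.

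CARD6, a CARD protein studied as a regulator of NF-kB signalling, was the pathway gene nearest to the threshold. It had 29.1, 28.7, 29.4 and 33.6 CPM in CDK4KO and 20.9, 22.9, 21.6 and 23.3 CPM in CDK4WT, with no overlap. CARD6 had a log2 difference of 0.45 ± 0.08 (SE), near that of CARD8 (edgeR adjusted p = 0.0573, DESeq2 adjusted p = 7.64e-05). Over 16 alternatives its adjusted p ran from 7.64e-05 to 0.219, and 4 passed.

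GSDMC, a gasdermin that caspase-8 can cut, had 4.68, 8.24, 7.60 and 7.85 CPM in CDK4KO and 3.21, 3.63, 4.05 and 4.82 CPM in CDK4WT. In CDK4KO, 3 tumours lay above the CDK4WT range and replicate 1 inside it. The log2 difference was 0.86 ± 0.19 (edgeR adjusted p = 0.118, DESeq2 adjusted p = 0.00539), and without CDK4KO replicate 1 it was 1.01 and passed edgeR's test (adjusted p = 0.0182), as CARD6 did (0.0282). Over the 16 alternatives the adjusted p of GSDMC ran from 0.00539 to 0.331, and 4 passed. Among the 18 measured gasdermin and repair genes the next smallest p belonged to the ESCRT factors CHMP6 and VPS4B, at 0.16 ± 0.11 and 0.09 ± 0.07, and the median was -0.01. GSDMB and NINJ1, the gene of the protein that ruptures the membrane after pore formation, were picked after their values were seen, and had log2 differences of 0.15 ± 0.15 and 0.18 ± 0.14.

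Of the sensors and adaptors, 17 of 26 were measured, with a median of 0.05 and 10 positive. NLRP1, the other human sensor held back by DPP9, had 75.4, 78.3, 76.7 and 77.4 CPM in CDK4KO and 76.6, 85.0, 80.9 and 92.9 CPM in CDK4WT. Its log2 difference was -0.12 ± 0.06 (edgeR adjusted p = 0.447), opposite in sign to that of CARD8, and a difference between the pair was not tested. NLRP2 stood at -0.53 ± 0.20, at 4.38 CPM ± 0.854 in CDK4KO and 6.31 CPM ± 1.60 in CDK4WT. PYCARD, the adaptor ASC that most inflammasomes other than CARD8 require, was low, at 2.92 CPM ± 0.511 in CDK4KO and 2.50 CPM ± 0.242 in CDK4WT.

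Of the caspases and their regulators, 12 of 13 were measured, 11 of them with a positive log2 difference and a median of 0.10. None was called by edgeR, and 8.33% of them had an unadjusted edgeR p under 0.05, against 13.0% of all genes. Over all genes the median log2 difference was 0.004, with quartiles of -0.09 and 0.09. A common rise of the list was not tested. FADD, the adaptor of caspase-8, stood at 0.17 ± 0.07 with all CDK4KO above all CDK4WT tumours (73.4 CPM ± 1.91 in CDK4KO and 65.0 CPM ± 5.92 in CDK4WT, edgeR adjusted p = 0.322). CFLAR and XIAP, inhibitors of caspases, stood at 0.11 ± 0.06 and 0.12 ± 0.07. CASP1, the caspase that CARD8 activates and named for that role after its values were seen, had 3.52, 5.05, 3.88 and 8.72 CPM in CDK4KO and 3.90, 4.25, 4.63 and 4.65 CPM in CDK4WT. CDK4KO replicate 4, the library with the highest GSDMD, stood above the rest, and the log2 difference of 0.28 ± 0.26 had an interval from -0.28 to 0.85. CARD16, a close copy of the CASP1 prodomain, can share reads with it.

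Of 18 genes of the degradation step, N-end rule ligases and 20S proteasome subunits, 12 were negative with a median of -0.04. PSMA4, a subunit of the proteasome core that degrades the N-terminal fragment of CARD8, had 76.8, 73.5, 71.0 and 77.7 CPM in CDK4KO and 90.3, 92.3, 87.6 and 80.1 CPM in CDK4WT, with no overlap. Its log2 difference was -0.23 ± 0.06 (edgeR adjusted p = 0.175, DESeq2 adjusted p = 0.0344), and over the 16 alternatives its adjusted p ran from 0.0310 to 0.415, of which 2 passed. PSMA6 and PSMB4 stood at -0.27 ± 0.09 and -0.21 ± 0.09.

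Among 11 measured dipeptidyl and prolyl peptidases other than DPP8 and DPP9, 8 were negative with a median of -0.09, and PREPL, PRCP and DPP3 stood at 0.17 ± 0.06, -0.16 ± 0.06 and -0.13 ± 0.06. Of 14 IL-1 family genes, 6 were measured. IL1R1, the interleukin-1 receptor, IL1RL1, the receptor of interleukin-33, and SIGIRR, a receptor that restrains them, stood at 0.43 ± 0.19, 0.90 ± 0.43 and 0.35 ± 0.21. IL1R1 had 2.37 CPM ± 0.526 in CDK4KO and 1.76 CPM ± 0.216 in CDK4WT. IL1RL1 had 0.855, 2.89, 2.50 and 5.32 CPM in CDK4KO and 1.17, 1.53, 1.72 and 1.80 CPM in CDK4WT. SIGIRR had 64.5, 31.0, 41.8 and 49.3 CPM in CDK4KO and 36.6, 32.6, 32.1 and 45.1 CPM in CDK4WT. The genotypes overlapped in each of these genes. Of the other 10 measured CARD proteins and their partners, 7 were negative. MAVS, the mitochondrial adaptor of RNA sensing, stood at 0.24 ± 0.07 and BIRC2, a ubiquitin ligase, at 0.17 ± 0.07.

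**Figure D5:**
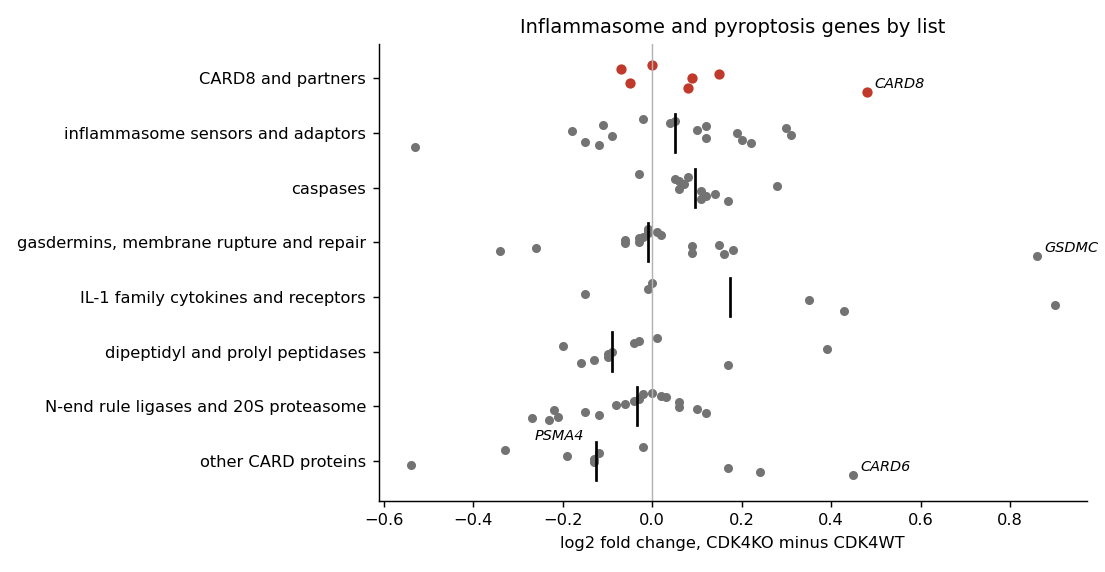
Log2 fold change, CDK4KO minus CDK4WT (horizontal axis), of CARD8 and its 6 partners (red, top row) and of the 92 other pathway genes by list (grey, 1 point per gene, black bar at the list's median). CARD8 at 0.48 lies above its partners at -0.07 to 0.15, and GSDMC at 0.86, CARD6 at 0.45 and PSMA4 at -0.23 are the named genes that DESeq2 called.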

How the data were processed

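The authors deposited 1 table of raw counts per Ensembl gene for 8 libraries, not normalized. Per the submitters' processing notes, which give hg38 as the build, cutadapt trimmed the reads, STAR 2.7.11a did the alignment and featureCounts 2.0.4 the counting. DESeq2 1.46.0 is named there too. Which annotation and strand setting were used, and how mouse reads were treated, is not given in the sources used here. Every gene of the table exceeds 1 CPM in at least 4 libraries. CDK4KO columns were matched to samples through the library names in the labels.

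The genotype fit used edgeR 4.0.16 under R 4.3.3, with TMM factors, filterByExpr (which removed no gene), robust dispersions and the quasi-likelihood test. P-values were adjusted by Benjamini-Hochberg over 13546 genes, with a threshold of 0.05. CPM are TMM-scaled, and log2 CPM used a prior count of 2. Standard errors come from the F statistic, and 95% intervals from its degrees of freedom. The edgeR quasi-likelihood fit was checked on counts simulated with its own fitted dispersions. Such counts follow the fit's own assumptions, so this check cannot show whether those hold for the data. Coordinates and exon lengths are from GENCODE 29 on hg38, and symbols were found for 13524 genes. The members, lists and rules were chosen with earlier results of these data known. Named pathway genes are the called genes and the 3 smallest p of each list, plus those marked as picked otherwise. Nothing in the labels ties the tumours to separate mice, and p-values therefore cover the spread between libraries alone. Alternatives were DESeq2 1.42.0, limma 3.58.1 voom with quality weights, other scalings and settings, the replicate block and each library left out.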

Additional observations from a re-analysis of the deposited data

Results flagged for a closer look

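Among 26 groups of 4 tumours checked, 14 of member levels and 12 of ratios to a partner, 2 held a tumour far from the rest of its group, and chance gives such a tumour in about 1 of 20 groups. The ratio of CARD8 to GSDME was 1.67 in CDK4KO replicate 3, where the other CDK4KO tumours had 1.40 to 1.42. The ratio of CARD8 to DPP8 was 1.44 in CDK4WT replicate 4, where the other CDK4WT tumours had 1.51 to 1.52. DPP8 had a coefficient of variation of 1.38% in CDK4WT, below the 2.14% to 2.48% that counting alone gives, so nothing is read from this gap. The 12 groups of ratios share the CARD8 values. No level of a single member stood apart in this way.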

How the results depend on the processing

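The CARD8 difference was positive in all 16 alternatives, at 0.47 to 0.48 under other tools, scalings and settings, at 0.51 without CDK4KO replicates 1 and 4 and at 0.43 to 0.51 with each library left out in turn. CARD8 was chosen for this difference and its genotypes do not overlap, so nothing is read from the constant sign. The partners moved by less than their spread between replicates in all of theirs. With library size only as the scaling, CARD8 stayed at 0.48. Counts of calls moved more. Across all genes, edgeR called 8, against 315 with DESeq2, 285 with limma voom, 14 with library size only as the scaling, 13 with the replicate block, 447 without CDK4KO replicates 1 and 4 and 0 to 183 with each library left out, the highest without CDK4KO replicate 1. Of the 92 pathway genes, 0 were called, against 3 with DESeq2, 3 with limma voom, 3 without CDK4KO replicates 1 and 4 (CARD6, GSDMC and PSMB4) and 0 to 2 with each library left out, the 2 without CDK4KO replicate 1. The cause was not tested. Same-numbered tumours correlated at -0.0313, -0.0142, 0.00348 and 0.194 in their deviations from the group means, and only replicate 4 correlated best with its own number, so the numbers were not taken as pairs. With the replicate block the CARD8 difference was 0.47. By RPKM in CDK4KO, CARD8 ranked 3 with merged exons and 2 with the longest transcript. Counting alone gives a coefficient of variation of 3.87% to 4.37% for IL18, above its measured spread in both genotypes, and of 2.14% to 2.48% for DPP8 and 1.87% to 2.04% for GSDME, above their measured spread in CDK4WT (1.38% and 1.10%). For the others the spread between 4 tumours per genotype exceeds it.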

Other observations

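The CDK4KO tumours varied more than the CDK4WT tumours in 6 of the 7 members, IL18 being the exception. The coefficient of variation had a median of 7.11% in CDK4KO and 3.15% in CDK4WT over the members, and of 10.0% in CDK4KO and 7.18% in CDK4WT over all genes, where it was higher in CDK4KO in 67.5%. DPP8 had 7.11% in CDK4KO and 1.38% in CDK4WT, where counting alone gives at least 2.14%, and DPP9 5.81% in CDK4KO and 1.36% in CDK4WT. CARD8 had 7.80% in CDK4KO and 3.15% in CDK4WT.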
